A study of Solanum lycopersicum with 14 samples.

Results

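The 8 genes described here carry out or control sucrose cleavage, synthesis and transport in tomato fruit, and were chosen by locus from 26397 genes with read counts. They are the vacuolar invertase TIV1 (Solyc03g083910.2, chromosome 3), the cell wall invertases LIN5 (Solyc09g010080.2, chromosome 9) and LIN6 (Solyc10g083290.1, chromosome 10), an invertase inhibitor (Solyc12g099200.1, chromosome 12), the sucrose synthases SUS1 (Solyc12g009300.1, chromosome 12) and SUS3 (Solyc07g042550.2, chromosome 7), a sucrose phosphate synthase called SPS (Solyc07g007790.2, chromosome 7) and the sucrose transporter SUT1 (Solyc11g017010.1, chromosome 11). Chromosomes are those of the SL2.40 genome build. In the deposited tables, the closest Arabidopsis genes of these loci were AT1G62660 for TIV1, cwINV4 for LIN5, CWINV2 for LIN6, C/VIF1 for the inhibitor, SUS4 for both SUS1 and SUS3, SPS1F for SPS and SUT1 for SUT1. The RefSeq gene table listed 5 of the 8 names, each on the same chromosome as its locus.

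The study followed the fruit transcriptome of the tomato cultivars AC (Ailsa Craig) and HG6-61 by RNA-seq at 7 stages set 7 days apart, the earliest at 7 and the latest at 49 days after flowering (DAF). The 14 libraries comprise 1 for each cultivar and stage, all from untreated plants grown in 1 greenhouse, and each was made from the mixed pericarp of fruits taken from 5 plants. The collection notes call 35 DAF mature green, 42 DAF breaker and 49 DAF ripening, while the sample records give the mature green name to every library up to 35 DAF. Following the study's methods, AC and HG6-61 stand in as replicates at each stage, so the tests between stages rest on the spread between cultivars, and a difference between cultivars at 1 stage has no replicate check.

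Sucrose made in leaves reaches the fruit through the phloem and is cleaved there. Invertases split it irreversibly into glucose and fructose, outside the cell for the wall-bound enzymes and inside the vacuole for the acid enzyme, and small inhibitor proteins can block them. Sucrose synthases cleave it reversibly in the cytosol to UDP-glucose and fructose and are associated with growing, starch-storing fruit, sucrose phosphate synthase makes it anew, and sucrose transporters load it across membranes. Ripe fruit of cultivated tomato holds mainly hexoses.

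Counts per library ranged from 1461817 to 6274456, with a median of 2609696. The lowest total was that of HG6-61 at 35 DAF. In the study's own read summary that library also had the lowest share of reads in coding sequence and the highest share between genes. The 14 seed markers, homologues of Arabidopsis storage protein, oleosin and embryo genes that pericarp should lack, summed to 19.5 RPKM in AC and 8.91 RPKM in HG6-61 at 7 DAF, with 6 and 8 of them at 0. They summed to 16365 RPKM at 21 DAF and 15317 RPKM at 28 DAF in AC and to 3793 and 11547 RPKM in HG6-61, so the libraries held seed transcripts, and the sums were 1006 and 444 RPKM at 49 DAF. In AC the 5 ripening markers summed to their highest value, 10200 RPKM, at 35 DAF, and in HG6-61 theirs, 7095 RPKM, came at 42 DAF. At 35 DAF the MADS-box ripening regulator RIN (Solyc05g012020) was at 447 RPKM in AC and 6.50 RPKM in HG6-61. In these bulk libraries, fewer cells of a type and less RNA per cell cannot be told apart.

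**Figure D1:**
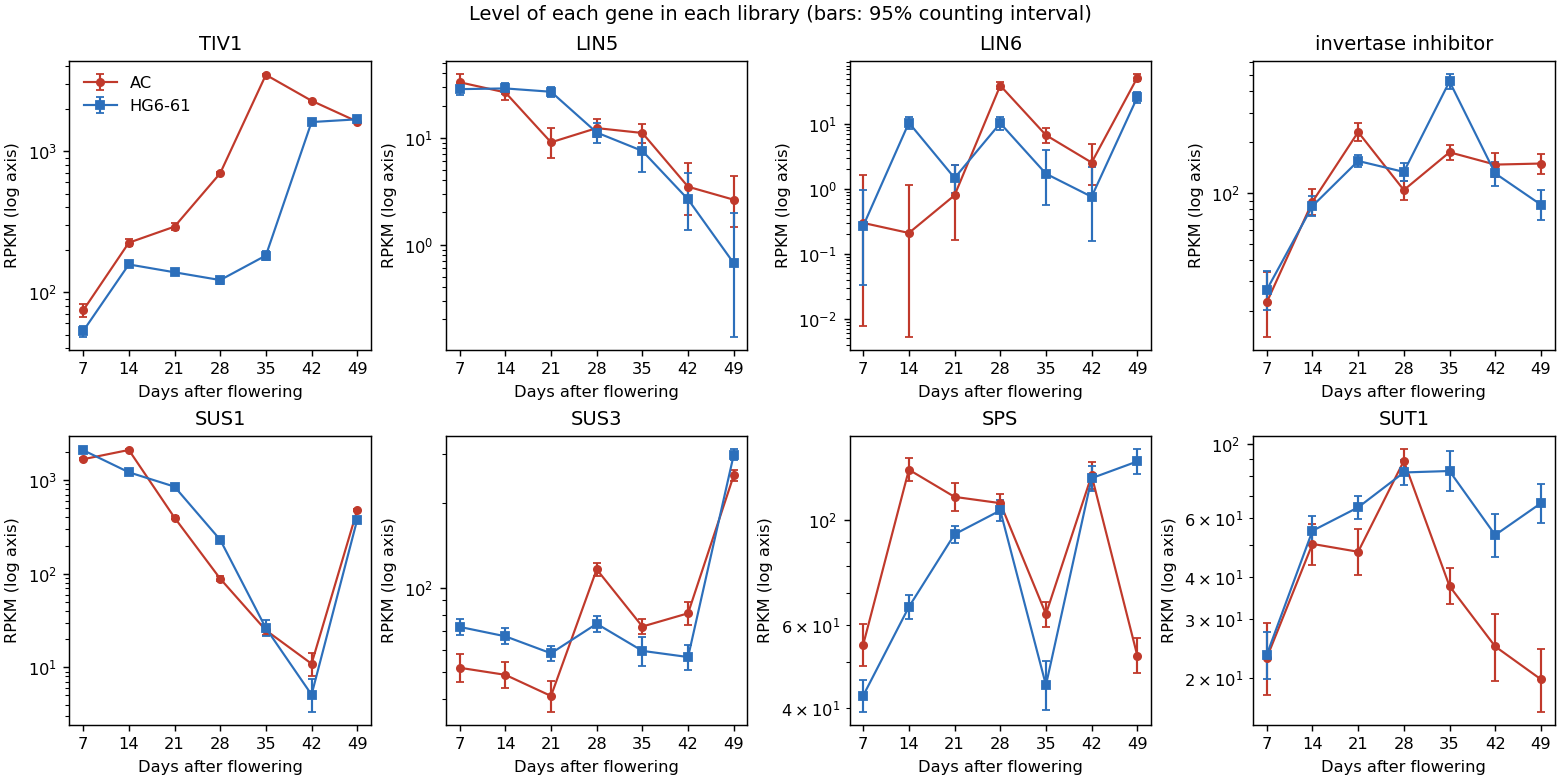
RPKM on a log axis against days after flowering for each of the 8 genes, with AC in red circles and HG6-61 in blue squares, 1 library a point and bars for the 95% counting interval. TIV1 reached 3479 RPKM in AC at 35 DAF when HG6-61 was at 182 RPKM, and SUS1 was lowest at 42 DAF in both cultivars.

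Over both cultivars, TIV1 and the invertase inhibitor were higher and SUS1 and LIN5 were lower at 42 than at 7 DAF, and at 49 DAF SUS3 and LIN6 were higher as well. SUS1 was higher at 49 than at 42 DAF. All 8 genes passed the filter on low counts, as did 18082 genes in all, and a call needed both a log2 fold change beyond 2 and p under 0.01 in edgeR's quasi-likelihood test after Benjamini-Hochberg adjustment over all of them. Between 7 and 42 DAF, 4 of the 8 were called, 2 higher and 2 lower, when 21.0% of all genes tested were called, 7.88% higher and 13.1% lower. Between 7 and 49 DAF, 5 of the 8 were called, 4 higher and 1 lower, when 22.6% of all genes tested were called, 8.83% higher and 13.8% lower. Their median log2 fold change was 1.29 at 42 DAF and 1.82 at 49 DAF against 7 DAF, beside -0.17 and -0.18 over all genes tested. Scaling by library totals in place of TMM factors moved the median of all genes to -0.41 at 42 DAF and -0.42 at 49 DAF and left both counts of called genes at 4 and 5. At 21 DAF 1 of the 8, the inhibitor, was called against 7 DAF, when 4.34% of all genes were called, 2.7% higher and 1.63% lower. Between 42 and 49 DAF 1 of the 8, SUS1, was called, when 0.431% of all genes were called, 0.293% higher and 0.138% lower. In the comparisons with 7 DAF, leaving out a library of a compared stage left 1 library there, and fewer of all genes tested were called. Some calls of members were lost in such fits, as given for each gene below. A call lost there cannot be told apart from the loss of the replicate. For 49 against 42 DAF, leaving out 1 library of 42 DAF or the AC library of 49 DAF lost the call of SUS1. Fewer of all genes tested were called in those fits too. With both libraries of 42 and 49 DAF in place, the count was 2 without the AC or HG6-61 library of 14 DAF. In DESeq2 it was 2 as well, when 456 of all 18082 genes tested were called.

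**Figure D2:**
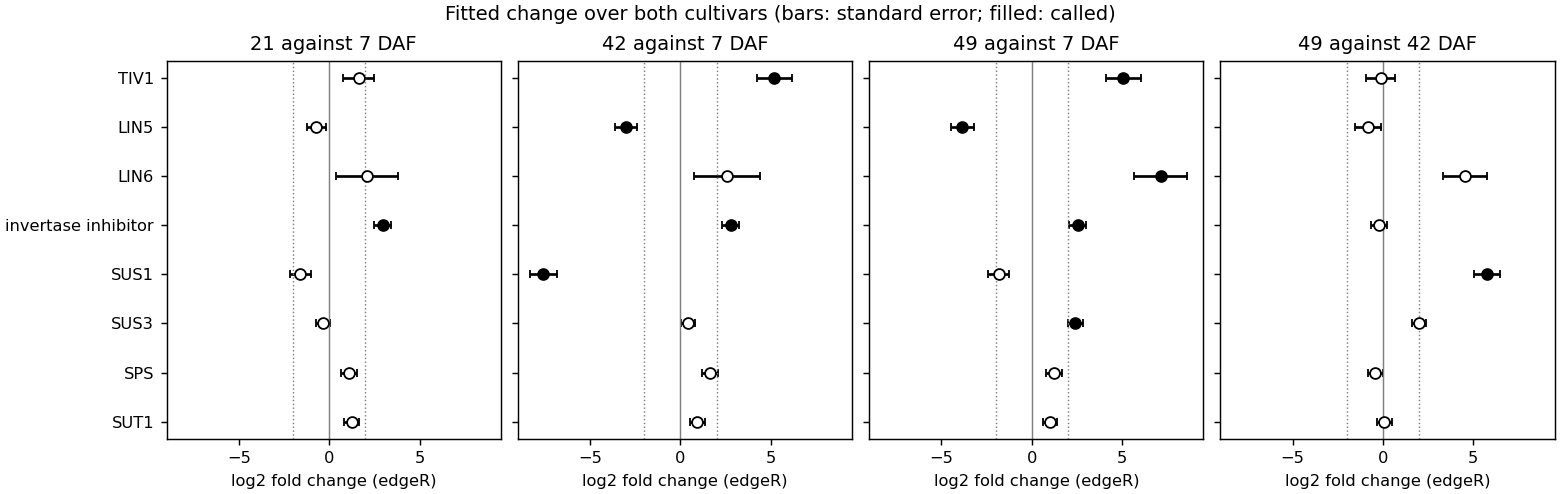
Fitted log2 fold change over both cultivars for the 8 genes in each of 4 stage comparisons. Bars give a standard error derived from the test statistic. Filled points are called genes, and dotted lines mark the fold limit of 2 on the log2 scale. SUS1 stood at -7.59 for 42 against 7 DAF and at 5.75 for 49 against 42 DAF, while the inhibitor was called in each of the 3 comparisons with 7 DAF.

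TIV1 encodes the vacuolar acid invertase, the main soluble invertase of tomato fruit. In AC its levels were 74.3, 224, 292, 698, 3479, 2279 and 1621 RPKM from 7 to 49 DAF. In HG6-61 they were 53.0, 157, 138, 122, 182, 1609 and 1683 RPKM at the same stages. The cultivars were within 1.43-fold of each other at 7, 14, 42 and 49 DAF, whereas at 28 and 35 DAF AC was 5.72 and 19.1 times HG6-61. At 35 DAF in AC the gene took 36176 reads, 0.846% of the library, and ranked 22 by RPKM among all genes. The steepest step between neighbouring stages in AC was from 28 to 35 DAF, at 4.99-fold with a counting interval of 4.86 to 5.12, and in HG6-61 from 35 to 42 DAF, at 8.84-fold with an interval of 8.18 to 9.56. These steps fell at the stages where the ripening markers went from 781 to 10200 RPKM in AC and from 223 to 7095 RPKM in HG6-61, and the part of the fruit's ripening stage in the cultivar difference was not tested.

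In AC the order of TIV1 from high to low was 35, 42, 49, 28, 21, 14 and 7 DAF. In HG6-61 it was 49, 42, 35, 14, 21, 28 and 7 DAF, and in neither cultivar did the 95% counting intervals of neighbours in the order overlap. The log2 fold change over both cultivars was 5.19 (SE 0.98, edgeR adjusted p = 0.00163) for 42 against 7 DAF and 5.06 (SE 0.97, edgeR adjusted p = 0.00179) for 49 against 7 DAF. Each cultivar showed a rise by RPKM, which carries no TMM factor, with 42 over 7 DAF at 30.7-fold in AC and 30.4-fold in HG6-61. The call at 42 DAF was lost without the AC or HG6-61 library of 7 DAF or the HG6-61 library of 42 DAF, with edgeR adjusted p of 0.0251, 0.0132 and 0.0103, and over all alternatives it lay between 6.82e-10 and 0.0251. The call at 49 DAF was lost without the AC or HG6-61 library of 7 DAF, with edgeR adjusted p of 0.0264 and 0.0140 in a range of 2.22e-09 to 0.0264. For 21 against 7 DAF the value was 1.62 (SE 0.84, edgeR adjusted p = 0.233), and for 49 against 42 DAF -0.14 (SE 0.82, edgeR adjusted p = 0.980).

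LIN5, a cell wall invertase known in tomato for its influence on fruit sugar content, was highest in the youngest fruit. AC libraries held 33.0, 26.5, 9.05, 12.3, 11.1, 3.48 and 2.63 RPKM from 7 to 49 DAF. HG6-61 libraries held 28.5, 28.9, 26.9, 11.2, 7.52, 2.65 and 0.67 RPKM, the last resting on 3 reads. The levels at 7 DAF lay above those at 42 and 49 DAF in both cultivars, and at 21 DAF AC stood at 9.05 RPKM when HG6-61 was still at 26.9 RPKM. The log2 fold change was -3.04 (SE 0.61, edgeR adjusted p = 0.00236) for 42 against 7 DAF and -3.86 (SE 0.64, edgeR adjusted p = 0.000777) for 49 against 7 DAF. The call at 49 DAF was kept with each library left out. The call at 42 DAF was lost without any 1 of the 4 libraries of 7 and 42 DAF, with edgeR adjusted p of 0.0116 to 0.0297 in a range of 2.12e-05 to 0.0297 over all alternatives. The order from high to low was 7, 14, 28, 35, 21, 42 and 49 DAF in AC and 14, 7, 21, 28, 35, 42 and 49 DAF in HG6-61. Counting intervals of neighbours in that order overlapped for 4 pairs in each cultivar, among them 7 and 14 DAF and 42 and 49 DAF.

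LIN6, the cell wall invertase next to Solyc10g083300.1 on chromosome 10, was near its limit of detection in young fruit and had its highest level at 49 DAF in both cultivars. In AC the counts were 1, 1, 3, 302, 53, 9 and 260 reads from 7 to 49 DAF, which are 0.30, 0.21, 0.80, 39.4, 6.77, 2.56 and 52.2 RPKM. In HG6-61 they were 2, 86, 17, 73, 5, 3 and 101 reads, or 0.27, 10.5, 1.48, 10.3, 1.72, 0.76 and 26.0 RPKM. Both cultivars thus had a level at 28 DAF that exceeded those at 21 and 35 DAF, and HG6-61 alone had one at 14 DAF, where AC had 1 read. The RPKM ratio of 49 to 7 DAF was 174 in AC with a counting interval of 30.9 to 6893, and 96.1 in HG6-61 with an interval of 25.9 to 804. Over both cultivars the log2 fold change was 7.15 (SE 1.46, edgeR adjusted p = 0.00255) and was called, and with 1 and 2 reads at 7 DAF its size depends on the fit. That call was lost without the AC library of 7 DAF, the AC library of 49 DAF or the HG6-61 library of 7 DAF, with edgeR adjusted p of 0.0289, 0.0114 and 0.0270 in a range of 2.10e-06 to 0.0289. For 49 against 42 DAF the ratio was 20.4 in AC, with an interval of 10.6 to 45.1, and 34.1 in HG6-61, with an interval of 11.4 to 168. As a log2 fold change this was 4.56 (SE 1.21, edgeR adjusted p = 0.0580) and missed the threshold, with a range of 0.00403 to 0.239 over alternatives and the lowest value in DESeq2. At 28 DAF the seed markers were at or near their highest sums, and their part in the level of LIN6 was not tested.

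The cell wall invertases LIN5 and LIN6 stood in opposite order at 7 and 49 DAF, and in AC the order changed more than once in between. The RPKM ratio of LIN6 to LIN5 at 7 DAF was 0.00909 in AC, with a counting interval of 0.000228 to 0.0515, and 0.00949 in HG6-61, with an interval of 0.00114 to 0.0346, from 1 and 2 reads of LIN6. At 49 DAF it was 19.8 in AC, with an interval of 11.8 to 35.9, and 38.7 in HG6-61, with an interval of 12.9 to 191, the latter from 3 reads of LIN5. LIN5 was thus the higher of the pair at 7 DAF and LIN6 at 49 DAF in both cultivars. At 28, 35 and 42 DAF the ratio was 3.20, 0.612 and 0.736 in AC and 0.925, 0.229 and 0.287 in HG6-61. Among these, the counting intervals of AC at 42 DAF and of HG6-61 at 28 and 42 DAF included 1. TIV1 exceeded LIN5 in every library, by 2.25-fold in AC and 1.86-fold in HG6-61 at 7 DAF. At 49 DAF the ratio of TIV1 to LIN5 was 616 in AC, with an interval of 374 to 1102, and 2512 in HG6-61, with an interval of 859 to 12182.

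The invertase inhibitor, related to the Arabidopsis protein C/VIF1, was lowest at 7 DAF in both cultivars and higher at every later stage. Its levels in AC were 22.4, 88.6, 230, 104, 174, 147 and 149 RPKM from 7 to 49 DAF. In HG6-61 they were 26.6, 83.6, 155, 133, 459, 131 and 85.1 RPKM. No later library overlapped the libraries of 7 DAF, and the value of 459 RPKM in HG6-61 at 35 DAF was 2.63 times that of AC at the same stage. That HG6-61 library had the fewest counts and the lowest share of reads in coding sequence, and the part of this in the value was not tested. From high to low the order was 21, 35, 49, 42, 28, 14 and 7 DAF in AC and 35, 21, 28, 42, 49, 14 and 7 DAF in HG6-61, with overlapping counting intervals for 3 pairs of neighbours in each. Against 7 DAF the log2 fold change was 2.96 (SE 0.48, edgeR adjusted p = 0.00298) at 21 DAF, 2.78 (SE 0.48, edgeR adjusted p = 0.000980) at 42 DAF and 2.55 (SE 0.48, edgeR adjusted p = 0.00156) at 49 DAF. The reads at 7 DAF numbered 22 and 57, and the call at 21 DAF was lost without the AC library of 7 DAF, the AC library of 21 DAF or the HG6-61 library of 7 DAF, with edgeR adjusted p of 0.0505, 0.0265 and 0.0336 in a range of 1.11e-06 to 0.0505. At 42 DAF it was lost without the AC library of 7 DAF (edgeR adjusted p = 0.0152, range 1.65e-06 to 0.0152). At 49 DAF it was lost without the AC library of 7 DAF, the AC library of 49 DAF or the HG6-61 library of 7 DAF, with edgeR adjusted p of 0.0219, 0.0114 and 0.0130 in a range of 1.22e-05 to 0.0219. Of 11 seed markers tested, 9, 6 and 4 were called higher too at 21, 42 and 49 against 7 DAF, with median log2 fold changes of 10.07, 5.03 and 4.39. Their sums at 42 DAF were 1682 RPKM in AC and 1150 RPKM in HG6-61, and their part in the result was not tested. Reads that map to several places were removed before counting, and the neighbours Solyc12g099190.1 and Solyc12g099210.1, whose closest Arabidopsis gene is also C/VIF1, reached 30.0 and 1.24 RPKM at most.

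Relative to the invertase inhibitor, TIV1 differed most between the cultivars at 28 and 35 DAF. Whether this inhibitor acts on TIV1 was not tested. The RPKM ratio of TIV1 to the inhibitor in AC was 3.32, 2.53, 1.27, 6.71, 20.0, 15.5 and 10.9 from 7 to 49 DAF. The ratios in HG6-61 were 1.99, 1.88, 0.895, 0.915, 0.397, 12.3 and 19.8. AC thus had its lowest ratio at 21 DAF, and HG6-61 had its own at 35 DAF, the library before the step in TIV1.

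SUS1 was among the most abundant transcripts of young fruit and had its lowest level at 42 DAF. In AC it was at 1676, 2106, 398, 88.6, 24.9, 10.9 and 481 RPKM from 7 to 49 DAF. In HG6-61 it was at 2095, 1216, 854, 231, 26.2, 5.10 and 380 RPKM. It ranked 14 among all genes by RPKM in AC at 14 DAF and 19 in HG6-61 at 7 DAF. The levels at 42 DAF came from 53 and 27 reads and lay below those of every other stage in both cultivars. The log2 fold change for 42 against 7 DAF was -7.59 (SE 0.76, edgeR adjusted p = 4.64e-05), which was called with every library left out in turn. Within the cultivars SUS1 was 154 times lower at 42 than at 7 DAF in AC and 411 times lower in HG6-61.

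At 49 DAF the levels of SUS1 were between those of 14 and 28 DAF in both cultivars. The ratio of 49 to 42 DAF was 44.1 in AC, with a counting interval of 33.6 to 59.0, and 74.5 in HG6-61, with an interval of 51.1 to 113. In the fit over both cultivars this was 5.75 on the log2 scale (SE 0.70, edgeR adjusted p = 0.00353). Without the AC library of 42 DAF, the AC library of 49 DAF or the HG6-61 library of 42 DAF it was 6.62, 5.36 and 5.16 and not called, with edgeR adjusted p of 0.0207, 0.0155 and 0.0404 in a range of 5.13e-19 to 0.0404. Against 7 DAF the level at 49 DAF was lower by 3.48-fold in AC and 5.51-fold in HG6-61, at a log2 fold change of -1.84 (SE 0.58, edgeR adjusted p = 0.0244) that missed the threshold. In limma on log2(RPKM + 1) that value was -2.13 and was called, with an adjusted p of 0.00776 in a range of 0.00328 to 0.154 over alternatives. No neighbours in the order of levels had overlapping counting intervals in either cultivar, and that order was 14, 7, 49, 21, 28, 35 and 42 DAF in AC and 7, 14, 21, 49, 28, 35 and 42 DAF in HG6-61.

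SUS3, the other sucrose synthase with SUS4 as its closest Arabidopsis gene, had its highest level at 49 DAF in both cultivars. AC libraries were at 51.6, 48.7, 40.9, 116, 72.5, 80.9 and 252 RPKM from 7 to 49 DAF. HG6-61 libraries were at 72.3, 66.9, 58.2, 74.2, 59.3, 56.4 and 299 RPKM. The level at 49 DAF lay above that of all earlier libraries, and the other 12 ranged from 40.9 to 116 RPKM. Its log2 fold change was 2.42 (SE 0.39, edgeR adjusted p = 0.000669) for 49 against 7 DAF, and the call was lost without the AC library of 7 DAF (edgeR adjusted p = 0.0146, range 1.69e-08 to 0.0146). For 49 against 42 DAF it was 1.99 (SE 0.39, edgeR adjusted p = 0.0206) and missed both limits, with 3.12-fold in AC and 5.30-fold in HG6-61. In HG6-61 the counting intervals of 5 pairs of neighbours in the order overlapped, so that the stages before 49 DAF were not separated there from 1 neighbour to the next. In AC 3 pairs overlapped, and the level at 28 DAF lay clear of every other stage, at 2.84 times that of 21 DAF with a counting interval of 2.48 to 3.26. The seed markers summed to 16365 RPKM at 21 DAF and 15317 RPKM at 28 DAF in AC. Their part in the level of SUS3 was not tested.

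Among sucrose synthases, SUS1 was 32.5 times SUS3 in AC and 29.0 times SUS3 in HG6-61 at 7 DAF by RPKM. At 42 DAF SUS3 was 7.41 times SUS1 in AC and 11.1 times SUS1 in HG6-61. At 49 DAF SUS1 was again above SUS3, by 1.91-fold in AC and 1.27-fold in HG6-61. From the lowest to the highest stage SUS1 ranged over 193-fold in AC and 411-fold in HG6-61, and SUS3 over 6.16-fold and 5.30-fold.

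The RPKM ratio of TIV1 to SUS1 was below 1 in young fruit and above 1 in the oldest stages. That ratio in AC was 0.0443, 0.107, 0.733, 7.88, 140, 209 and 3.37 from 7 to 49 DAF. The ratios in HG6-61 were 0.0253, 0.129, 0.162, 0.528, 6.94, 316 and 4.43. The ratio of TIV1 to SUS1 passed 1 between 21 and 28 DAF in AC and between 28 and 35 DAF in HG6-61, was highest at 42 DAF in both, and was lower at 49 DAF, where TIV1 was at 1621 and 1683 RPKM and SUS1 at 481 and 380 RPKM. Summed over all listed homologues, vacuolar invertase over sucrose synthase was 31.2 at 35 DAF, its highest, and 22.8 at 42 DAF in AC. In HG6-61 it was 2.05 at 35 DAF and 21.9 at 42 DAF, its highest, and at 49 DAF the sums stood at 2.18 in AC and 2.43 in HG6-61. These sums include SUS3, which was above SUS1 at 42 DAF, so their ratio was lower there than that of TIV1 to SUS1.

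**Figure D3:**
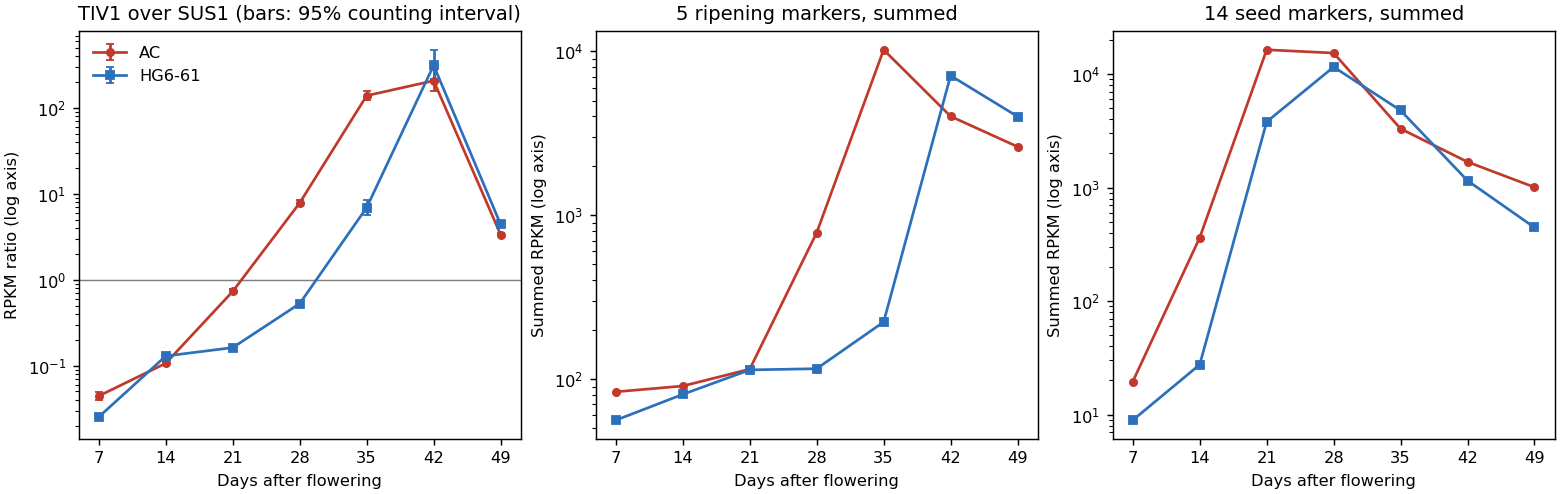
RPKM ratio of TIV1 to SUS1 with its 95% counting interval, and the summed RPKM of 5 ripening markers and of 14 seed markers, all on log axes against days after flowering, with AC in red circles and HG6-61 in blue squares. The ratio was highest at 42 DAF, at 209 in AC and 316 in HG6-61, while the seed markers summed to the most at 21 DAF in AC and 28 DAF in HG6-61.

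SPS, which makes sucrose phosphate from UDP-glucose and fructose phosphate, kept within a narrow range. Its levels in AC were 54.5, 128, 112, 109, 63.2, 125 and 51.6 RPKM from 7 to 49 DAF, a range of 2.48-fold. In HG6-61 they were 42.4, 65.5, 93.4, 105, 44.7, 123 and 133 RPKM, a range of 3.15-fold. Both cultivars had a lower level at 35 DAF than at 28 and 42 DAF, and at 49 DAF they parted, at 51.6 RPKM in AC and 133 RPKM in HG6-61. Against 7 DAF the log2 fold change was 1.09 (SE 0.43, edgeR adjusted p = 0.120) at 21 DAF, 1.64 (SE 0.44, edgeR adjusted p = 0.0109) at 42 DAF and 1.23 (SE 0.44, edgeR adjusted p = 0.0399) at 49 DAF, and none was called. The value at 49 DAF differed by cultivar, with RPKM ratios to 7 DAF of 0.948 in AC and 3.15 in HG6-61, and with 1 library left out it ranged from 0.36 without the HG6-61 library of 49 DAF to 1.98 without the AC library of 49 DAF. In AC 5 pairs of neighbours in the order had overlapping counting intervals and in HG6-61 2 pairs did.

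SUT1, a transporter that carries sucrose together with protons across the plasma membrane, was at 23.0 RPKM in AC and 23.5 RPKM in HG6-61 at 7 DAF. In AC the later levels were 50.3, 47.6, 88.9, 37.6, 24.9 and 19.8 RPKM from 14 to 49 DAF. In HG6-61 they were 55.0, 64.6, 82.2, 83.0, 53.5 and 66.5 RPKM. AC thus had its highest level at 28 DAF, and the part of seed transcripts in that level was not tested. On the RPKM scale AC was back at its level of 7 DAF by 42 DAF, when the intervals of 42, 7 and 49 DAF overlapped from neighbour to neighbour. HG6-61 stayed above 50 RPKM from 14 DAF on. HG6-61 exceeded AC by a log2 ratio of 1.14, 1.10 and 1.75 at 35, 42 and 49 DAF. Against 7 DAF the log2 fold change over both cultivars was 1.25 (SE 0.40, edgeR adjusted p = 0.0626) at 21 DAF, 0.94 (SE 0.41, edgeR adjusted p = 0.0833) at 42 DAF and 1.01 (SE 0.41, edgeR adjusted p = 0.0631) at 49 DAF, and none was called.

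Between the cultivars, no member was called over the 7 stages together, when 0.238% of all genes tested were called, 0.0774% higher and 0.16% lower in HG6-61. At an unadjusted p under 0.05 in edgeR there were 2 of the 8 members, SUT1 and TIV1, and 15.7% of all genes tested. DESeq2 called 0 of the 8 and 119 of all 18082 genes tested. SUT1 had a log2 difference of HG6-61 to AC of 0.58 (SE 0.22, edgeR adjusted p = 0.231) and was higher in HG6-61 at 6 of 7 stages. TIV1 had one of -1.27 (SE 0.48, edgeR adjusted p = 0.237) and was higher in HG6-61 at 1 of 7 stages. The other 6 members lay between -0.61 for LIN6, with an SE of 0.69, and 0.06 for SUS1, with an SE of 0.32, and 4 of them, SUS1, SUS3, LIN5 and the inhibitor, changed sign with 1 library left out. The cultivar difference in the change from 7 to 21 DAF to 42 to 49 DAF, tested as an interaction with the stages of a period as replicates, gave 0 calls among the 8 and 0.0% among all genes tested. At an unadjusted p under 0.05 in edgeR it gave 0 of the 8 and 776 of all genes, and DESeq2 called 0 of the 8 and 3 of all genes. Its estimate for TIV1 was 0.37 (SE 1.11), for SUT1 1.04 (SE 0.68) and for LIN6 -4.37 (SE 2.41), the last with a range of -8.43 without the HG6-61 library of 49 DAF to -0.97 without the AC library of 49 DAF.

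Among the other genes of sucrose and hexose metabolism, listed by their Arabidopsis homologues, calls against 7 DAF were in the lower direction. Outside the 8, 49 genes of 10 lists were found and 35 passed the filter, of which 0 were called higher and 8 lower for 42 against 7 DAF, and 0 higher and 7 lower for 49 against 7 DAF. Over all genes tested, 7.88% were called higher and 13.1% lower at 42 DAF, and 8.83% and 13.8% at 49 DAF. At 42 DAF their median log2 fold change was -1.45 beside -0.17 for all genes tested, or -1.30 when 2 genes listed at 0 were set at their bound, and at 49 DAF it was -0.68 beside -0.18. At 21 against 7 DAF 0 were called higher and 2 lower, beside 2.7% and 1.63% of all genes tested. At 49 against 42 DAF 0 were called, and so few of all genes tested were, 0.431%, that a count of 0 among 35 tells little. At an unadjusted p under 0.05 in edgeR, 3, 2 and 2 of the 35 were higher and 7, 22 and 16 lower at 21, 42 and 49 against 7 DAF, and 8 were higher and 0 lower at 49 against 42 DAF. By the same measure 15.7%, 22.5% and 23.5% of all genes tested were higher and 13.2%, 29.1% and 29.2% lower in the 3 comparisons with 7 DAF, and 11.4% higher and 10.6% lower at 49 against 42 DAF. DESeq2 called 0 higher in the 3 comparisons with 7 DAF, 3, 9 and 7 lower, and 1 higher at 49 against 42 DAF, the fructokinase homologue Solyc06g073190.2. Of all 18082 genes tested, DESeq2 called 1356, 4446 and 4662 in either direction at 21, 42 and 49 against 7 DAF. At 49 against 42 DAF it called 456.

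Solyc08g079080.2, the other homologue of a vacuolar invertase, was called lower at 21, 42 and 49 DAF. It was at 19.0 RPKM in AC and 18.5 RPKM in HG6-61 at 7 DAF and 1.95 and 1.84 RPKM at 21 DAF, and was listed at 0 in both libraries of 42 DAF. TIV1 had 30.7 and 30.4 times its level of 7 DAF in the same 2 libraries. Hexokinases phosphorylate the hexoses that invertase releases. Of 6 genes on the hexokinase list, among them homologues of the hexokinase-like HKL1 and HKL3, 3 were called lower at 42 DAF and 3 at 49 DAF. Whether each of the 6 has this activity was not tested. Solyc03g121070.2, the homologue of HXK1, went from 96.6 RPKM in AC and 98.6 RPKM in HG6-61 at 7 DAF to 4.29 and 3.08 RPKM at 42 DAF, a log2 fold change of -4.49 (SE 0.33, edgeR adjusted p = 1.15e-05). The fructokinase homologue Solyc06g073190.2 was at 390 and 451 RPKM at 7 DAF and at 47.1 and 41.2 RPKM at 42 DAF, a log2 fold change of -2.94 (SE 0.57, edgeR adjusted p = 0.00201).

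Solyc09g092130.2, a homologue of the sucrose phosphate synthase SPS3F, was lower by 4.55 on the log2 scale at 42 DAF (edgeR adjusted p = 0.000595), where SPS itself was not called. Solyc09g098590.2, a sucrose synthase homologue, was never above 9.20 RPKM and had a log2 fold change of -2.18 at 42 DAF (SE 0.44, edgeR adjusted p = 0.00239). Solyc11g005820.1, an inhibitor homologue related to C/VIF2, was at 34.7 and 26.0 RPKM at 7 DAF and at 0 and 1.55 RPKM at 49 DAF, and was called lower there. The 8 neutral invertase homologues tested had a median log2 fold change of 0.13 at 42 DAF and -0.07 at 49 DAF and 0 were called in edgeR or DESeq2, while at an unadjusted p under 0.05 in edgeR 2 were higher and 3 lower at 42 DAF, and 1 higher and 3 lower at 49 DAF. The cell wall invertase homologue Solyc09g010090.2, the neighbour of LIN5, was never above 4.82 RPKM, and Solyc10g083300.1, the neighbour of LIN6, never above 0.42 RPKM.

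**Figure D4:**
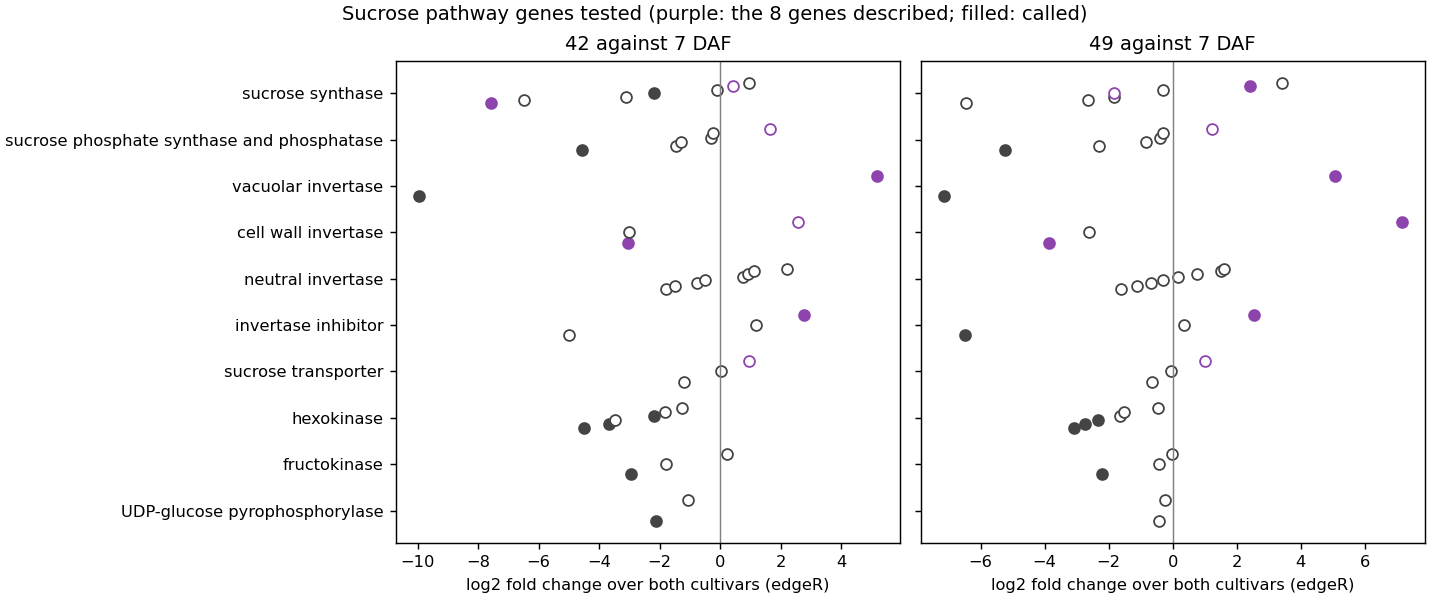
Fitted log2 fold change of each sucrose pathway gene tested, grouped by list, for 42 and 49 DAF against 7 DAF, with the 8 members in purple, the other genes in grey and called genes filled. The 35 other genes include 0 called higher and 8 called lower at 42 DAF, and 0 and 7 at 49 DAF. Of all genes tested, 7.88% were called higher and 13.1% lower at 42 DAF, and 8.83% and 13.8% at 49 DAF.

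Across the 14 libraries, the genes whose log2(RPKM + 1) was most like that of a member were sought among 10054 genes that averaged 50 reads or more per library. For TIV1 they were Solyc03g031860.2, the phytoene synthase PSY1, with a Pearson r of 0.97, Solyc01g107830.2 with 0.97 and Solyc06g059740.2 with 0.96. For SUS1 they were Solyc06g071410.2 and Solyc02g086600.2 with 0.96 each and Solyc04g071650.2, a homologue of the cellulose synthase CESA2, with 0.95. For LIN6 they were Solyc07g047780.2 with 0.93, Solyc09g075820.2, a homologue of the hexose transporter STP13, with 0.92 and Solyc02g080070.2 with 0.92. For SUS3 the nearest was Solyc03g112030.1 with 0.96, for LIN5 Solyc01g111770.2 with 0.96 and for the inhibitor Solyc06g076490.2 with 0.95. For SPS the nearest was Solyc10g051200.1 with 0.95 and for SUT1 Solyc07g006540.2 with 0.92. These correlations describe likeness only, since the 14 points share a developmental course and the same library normalisation.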

How the data were processed

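Per the labels and methods, pericarp RNA was sequenced on an Illumina Genome Analyzer IIx. The authors removed adaptors, reads with many unknown bases and reads under 16 bases, mapped the rest to SL2.40 with TopHat 2.0.4 at up to 2 mismatches and dropped reads with several placements. Deposited counts are the remaining reads per gene, for 26397 genes. The RPKM values of the authors, for 26684 genes, are scaled by gene length and library reads but do not follow from the deposited counts for every gene: in each library 166 to 236 genes have RPKM above 0 and a count of 0, none of them a member. Strand use in counting is not given in the sources used here.

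Levels are deposited RPKM with exact 95% Poisson intervals of the counts, and ratios have exact binomial intervals. The reads carry no molecular identifiers, so intervals cover counting error only. Counts were fitted in edgeR 4.0.16 (R 4.3.3; TMM, filterByExpr, quasi-likelihood) with stage and cultivar over 14 libraries, and p-values were Benjamini-Hochberg adjusted over 18082 genes. Each SE is the absolute log2 fold change divided by the square root of the quasi-likelihood F statistic, not a separate estimate. Counts were simulated at a dispersion of 0.1, with levels flat over development apart from a log2 change of 3 in the changed genes. The comparison of 49 with 7 DAF recovered 89% of changed genes with 1 false call, and that of HG6-61 with AC 100% with 0. The cultivar difference in developmental change recovered 60% with 1. Spread from development within a period was absent from these counts, as were cultivar differences that vary by stage. The 89%, 100% and 60% therefore do not measure recovery in the real libraries. Alternatives were DESeq2 1.42.0, limma 3.58.1 on log2(RPKM + 1) and log2(RPKM + 0.1), library totals, other filters and limits, no cultivar term and leaving out libraries. No batch is given beyond cultivar and stage.

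Named are the 8 members, listed pathway genes that passed a test, ripening and seed markers, the 3 genes most like each member in Pearson r, and neighbouring homologues, which were chosen after their values were seen. The members and lists were chosen with earlier results of these data known. Names of members follow their loci. Protein sequences were not analysed here.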

Additional observations from a re-analysis of the deposited data

Results flagged for a closer look

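SUS3 was flagged because the cultivars moved in opposite directions between 7 and 42 DAF. The log2 RPKM ratio of 42 to 7 DAF was 0.65 in AC and -0.36 in HG6-61, so that HG6-61 minus AC was -1.01. The counting interval of each ratio excluded no change, above it in AC and below it in HG6-61. TIV1 was flagged for the same reason between 42 and 49 DAF, where the log2 RPKM ratio was -0.49 in AC and 0.06 in HG6-61, a difference of 0.56. With 1 library for each cultivar and stage, neither difference was tested.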

How the results depend on the processing

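The counts of called members at 21, 42 and 49 against 7 DAF (1, 4 and 5) kept within 1.5-fold under every alternative that changed a tool, filter, scale or limit. For 49 against 42 DAF the count of 1 became 2 with DESeq2 and 2 at an adjusted p under 0.05 with no fold limit. Leaving out 1 library at a time gave 0 to 1 at 21 DAF, 1 to 4 at 42 DAF and 1 to 5 at 49 DAF against 7 DAF, and 0 to 2 for 49 against 42 DAF. Both alternatives chosen after seeing the data, without both libraries of 35 DAF and without those of 21 and 28 DAF, left every count they could give as it was. The counts above come from a fit in which cultivar is the block, and without it (no replicate block) they were 1, 4, 5 and 1.

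Log2 values that changed sign were those of members not called. SUT1 for 49 against 42 DAF became -0.00073 in limma on log2(RPKM + 1) and -0.0047 on log2(RPKM + 0.1). For HG6-61 against AC, SUS3 became 0.050 with library totals, 0.033 and 0.034 in the limma fits, 0.032 without 35 DAF and 0.014 without 21 and 28 DAF. The inhibitor became 0.061, 0.051, 0.052 and, without 21 and 28 DAF, 0.048. LIN5 became 0.014 without 35 DAF and SUS1 -0.42 without 21 and 28 DAF. With 1 library left out, ranges that cross no change were -0.69 to 0.034 for SUS3 and -2.02 to 0.031 for LIN5 at 21 against 7 DAF. At 49 against 42 DAF they were -1.01 to 0.39 for TIV1, -1.43 to 0.19 for SPS, -0.65 to 0.53 for SUT1 and -0.90 to 0.21 for the inhibitor. Between cultivars they were -0.11 to 0.10 for SUS3, -0.42 to 0.048 for LIN5, -0.15 to 0.25 for SUS1 and -0.24 to 0.15 for the inhibitor. For the cultivar difference in the developmental change they were -0.025 to 0.77 for TIV1, -2.17 to 0.48 for SUS3, -5.76 to 3.95 for SUS1 and -1.27 to 0.44 for the inhibitor. The cause was not tested. Where a library is left out of a compared stage, the lone library there is assumed to vary like the others. Depth limits LIN6 before 28 DAF in AC, LIN5 at 49 DAF and SUS1 at 42 DAF.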
